A study of Homo sapiens with 5 samples.

Results

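The RAB GTPases are small GTP-binding proteins that mark the membranes of the cell and steer vesicles between them. In the GTP-bound form a RAB sits in a membrane by its prenylated tail and recruits effectors such as motors and tethers. A guanine nucleotide exchange factor (GEF) loads GTP, a GTPase-activating protein (GAP) ends the signal, and a GDP dissociation inhibitor (GDI) takes the inactive RAB off the membrane. In blood cells they are known for carrying granules, endosomes, and phagosomes.

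Members were chosen by name, as protein-coding genes with a symbol made of RAB, a number, and at most 1 letter and 1 further digit, which leaves out effectors and pseudogenes. The table of 27328 genes held 56 such genes. Of 63 annotated in GENCODE release 44, the 7 others (*RAB1B*, *RAB7B*, *RAB17*, *RAB19*, *RAB36*, *RAB42*, and *RAB43*) were not analysed here. RNA-seq counts came from 5 libraries of TF-1, a human AML cell line grown with GM-CSF. The 2 control pools, sgCtrl_1 and sgCtrl_2, carried Cas9 and an sgRNA against *renilla luciferase*. The 3 *MTSS1* knockout pools carried Cas9 and sgMTSS1_1, sgMTSS1_2, or sgMTSS1_3, respectively. Every pool mixed 4 single-cell clones, so replicates are clone pools, and those of the knockout differ in their sgRNA. P-values measure the spread between such pools. The paper had excluded a further pool of each group as an outlier, so this spread may be understated.

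Reads come from the 3′ end of mRNAs, so that counts follow the number of molecules and not the transcript's length. Levels are given as CPM, counts scaled to a common library size after TMM correction. Total counts were 2849979 and 3408827 in the control pools and between 5442639 and 8854899 in the knockout pools. Both control pools were thus shallower, and depth cannot be told apart from condition. A count of 3, taken here as the floor, corresponds to between 0.389 and 0.938 CPM, and values below this floor are also given. *MTSS1* mRNA stood at 204 and 87.9 CPM in control and at 104, 139, and 49.9 CPM in knockout pools. These groups overlapped, but 3′ reads lie outside the first exon, the target of sgMTSS1_1 and sgMTSS1_2, and do not check the knockout in those pools. The target exon of sgMTSS1_3 was not determined here. All 9 markers fixed for TF-1, among them *CD34* (112 to 345 CPM) and *GATA1* (56.4 to 110 CPM), were measured in all libraries, and none was differentially expressed. *CD34*, *KIT*, and *CSF2RB* were higher and *GATA1* was lower in every knockout than in both control pools. Summed markers of T cells (*CD3D* and *CD3G*), epithelial cells (*EPCAM*), and fibroblasts (*COL1A1* and *COL1A2*) stayed at or below 4.70, 0.542, and 0.696 CPM. The B cell marker *CD79A* was at 6.25 and 2.38 CPM in control and at 0.519, 0.903, and 0.696 CPM in knockout pools, and the part of any of these markers in the results was not tested.

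Differential expression was called where the edgeR adjusted p-value, from its quasi-likelihood test and Benjamini-Hochberg adjusted over all tested genes, was under 0.05 and the log2-fold change exceeded 1 or was less than −1. SE denotes the standard error of a log2-fold change. Among the RAB genes, 1 was called: *RAB37*, which encodes a RAB of secretory granules, rose 2.95-fold in the knockout. Of the genes around the RABs, the GDI *GDI2* rose 3.51-fold, the GEF *ANKRD27* rose 3.09-fold, and the TRAPP subunit *TRAPPC1* fell to 0.283 of its control level. The promoters of these genes and of *RAB32* and *RAB31*, 2 uncalled RABs chosen after their values were seen (*RAB23* lies between them in the order of p-values), were looked up in RefSeq (GRCh38.p14), where *RAB37* had no entry. The 250 bases upstream of the start site are shown 5′ to 3′ on the gene's strand for a pair whose log2-fold changes had opposite signs, *RAB32* (chr6:146543583-146543832, plus strand) and *RAB31* (chr18:9708051-9708300, plus strand), and for *GDI2* (chr10:5813435-5813684, minus strand) and *ANKRD27* (chr19:32675181-32675430, minus strand). Capitals mark GGGCGG (GC box), CCAAT, and CACGTG (E-box) on either strand.
RAB32: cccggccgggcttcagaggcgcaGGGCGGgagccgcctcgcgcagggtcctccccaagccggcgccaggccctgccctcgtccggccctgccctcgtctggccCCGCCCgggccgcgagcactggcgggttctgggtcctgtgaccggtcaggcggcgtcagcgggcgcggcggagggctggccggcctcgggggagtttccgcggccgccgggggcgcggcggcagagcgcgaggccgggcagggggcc
RAB31: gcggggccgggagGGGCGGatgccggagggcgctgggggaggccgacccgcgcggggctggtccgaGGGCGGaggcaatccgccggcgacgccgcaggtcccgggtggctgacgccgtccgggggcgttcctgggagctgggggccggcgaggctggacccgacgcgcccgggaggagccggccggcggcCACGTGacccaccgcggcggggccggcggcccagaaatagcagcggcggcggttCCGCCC
GDI2: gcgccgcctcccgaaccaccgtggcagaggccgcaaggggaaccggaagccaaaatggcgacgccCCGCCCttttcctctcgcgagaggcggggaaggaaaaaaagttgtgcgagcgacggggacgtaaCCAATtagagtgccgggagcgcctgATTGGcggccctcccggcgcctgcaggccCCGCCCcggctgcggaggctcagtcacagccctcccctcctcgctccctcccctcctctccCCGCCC
ANKRD27: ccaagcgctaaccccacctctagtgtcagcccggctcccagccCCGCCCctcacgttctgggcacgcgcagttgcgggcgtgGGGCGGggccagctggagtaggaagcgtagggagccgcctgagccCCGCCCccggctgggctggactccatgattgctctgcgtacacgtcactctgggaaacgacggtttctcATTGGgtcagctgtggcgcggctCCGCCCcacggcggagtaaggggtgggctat
GGGCGG occurs in all 4 of these promoters. The promoter of *RAB31* is the only 1 of the 4 with CACGTG, which starts at −60 from the start site, and *GDI2* and *ANKRD27* hold CCAAT. The promoter of *TRAPPC1*, the regulator called as lower, is not shown. It holds GGGCGG at −217 and −171 and CCAAT at −84, so CCAAT was found in called genes of both directions. Promoters were found for 35 of the 45 RAB genes tested, 51 start sites in all. GGGCGG was in 74.5% of these and in 42.6% of all 35116 promoters of the table. CCAAT was in 31.4% and 32%, CACGTG in 9.8% and 6.34%, and TATAAA in 5.88% and 10.7%, respectively. The CArG box, the motif bound by serum response factor, was in 0 of the 51 and in 1.16% of all promoters. The promoters of the RAB genes were limited to tested genes and all promoters were not, so these shares compare unlike sets. These are matches of letters and no evidence of binding.

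Members were grouped by the role each is best known for. RABs of recycling and polarised transport had the highest summed level in the control pools (862 to 1074 CPM). RABs of early endosomes and phagosomes (385 to 728 CPM) and of the ER and Golgi (424 to 484 CPM) overlapped. In control pools, 7 of the 56 genes had a mean of at least 100 CPM, 22 lay from 10 to 100 CPM, 17 from 1 to 10 CPM, and 10 under 1 CPM. *RAB11A*, which directs recycling endosomes to the surface, was at 369 and 203 CPM in control pools 1 and 2. *RAB10*, which acts in exocytic and recycling transport, was at 265 and 266 CPM, and *RAB2A*, a RAB of the early secretory pathway, at 269 and 193 CPM. *RAB5C*, a RAB of early endosomes, was at 79.1 and 432 CPM. These 4 neighbours in the order of means overlapped in their control pools, so their order is not fixed by these data. *RAB31*, which carries cargo between the trans-Golgi network and endosomes, followed at 172 and 176 CPM, below the pools of *RAB2A* and between those of *RAB5C*. Together, the top 5 made up 51.4% of the summed RAB level in control pools. *RAB7A* (114 and 153 CPM), the RAB of late endosomes and lysosomes, and *RAB8A* (111 and 141 CPM) came next and overlapped.

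**Figure D1:**
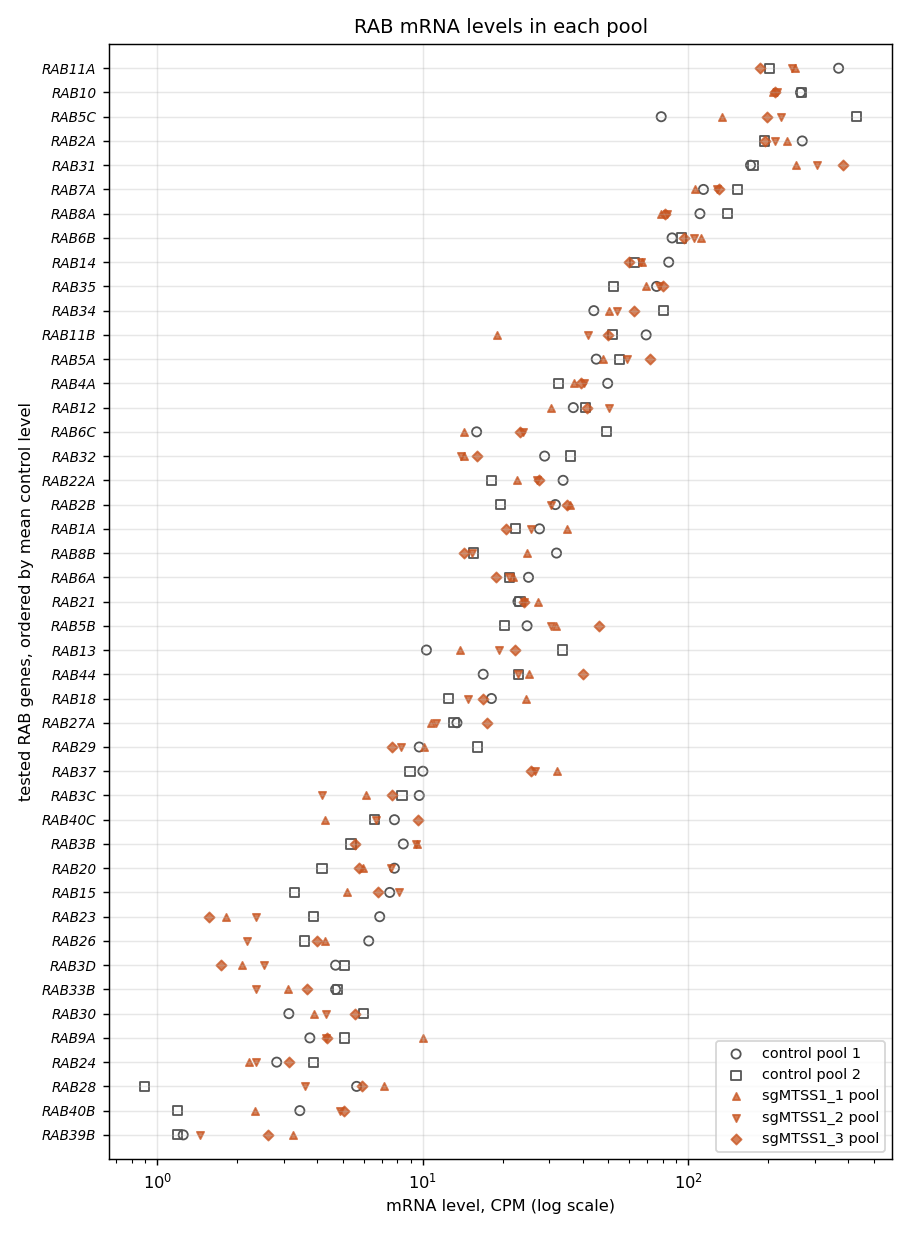
mRNA level in CPM on a log scale (horizontal) of the 45 tested RAB genes, ordered by mean control level (vertical), with open symbols for the 2 control pools and filled symbols for the 3 knockout pools. Most genes have mixed symbols, while the filled symbols of *RAB37* and *RAB31* lie to the right and those of *RAB32* to the left of the open ones, and the control pools of *RAB5C* lie far apart at 79.1 and 432 CPM.

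Together, RAB genes took 0.256% (95% Wilson interval 0.250 to 0.262) and 0.240% (0.235 to 0.245) of the counts in control pools 1 and 2. In the knockout, they took 0.185% (0.183 to 0.188) in the sgMTSS1_1, 0.233% (0.229 to 0.238) in the sgMTSS1_2, and 0.230% (0.226 to 0.234) in the sgMTSS1_3 pool. These intervals cover counting error only. The share was thus lowest in the sgMTSS1_1 pool and lower in every knockout than in both control pools. After TMM scaling, the summed level ranged from 2279 to 2436 CPM in control and from 2128 to 2323 CPM in knockout pools, and the groups overlapped.

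The filter on low counts kept 45 of the 56 genes. Among the tested genes, 20 were higher and 25 lower in the knockout, and 28 had a log2-fold change between −0.5 and 0.5. The median was −0.07, beside −0.03 for all 14391 tested genes. Differential expression was called for 1 RAB gene that was higher and for 0 that were lower, where 5.18% of all tested genes were called, 4.17% as higher and 1.01% as lower. No further RAB gene had an adjusted p-value under 0.05, a threshold that also 5.18% of all genes passed. At an unadjusted p-value under 0.05 stood 6 of the 45 and 23.3% of all genes. Every knockout pool lay above both control pools for 6 RAB genes (22.2% of all genes) and below for 8 (19.2% of all genes). With GC content of the transcript, the log2-fold changes had a Spearman's rho of 0.02 across the 45 genes, with transcript length of 0.14, and with control level of −0.18, beside −0.02, −0.13, and −0.16 across 14353 tested genes. These values are descriptions across genes that share the same 5 libraries.

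**Figure D2:**
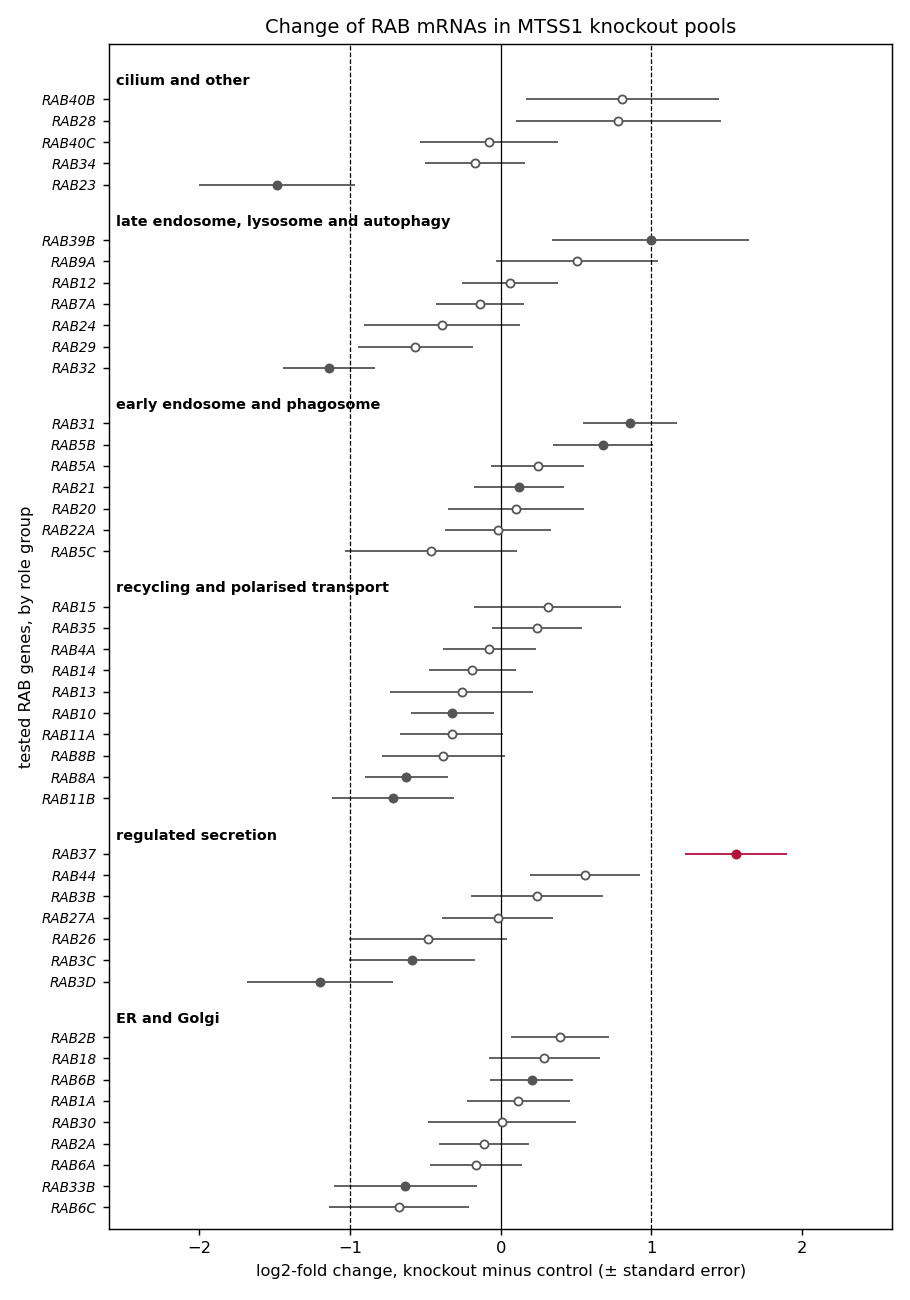
Log2-fold change between knockout and control pools (horizontal, with its SE) of the 45 tested RAB genes by role group (vertical), where filled points mark genes whose pools do not overlap and dashed lines log2-fold changes of −1 and 1. *RAB37*, in red, is the only RAB gene called, and *RAB23*, *RAB3D*, and *RAB32* lie beyond −1 without passing the adjusted p-value.

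RABs of regulated secretion held the called gene. *RAB37* (ENSG00000172794, chromosome 17, 74670578 to 74747335) was at 10.005 and 8.94 CPM in control pools 1 and 2, and at 31.9 (sgMTSS1_1), 26.4 (sgMTSS1_2), and 25.6 CPM (sgMTSS1_3) in knockout pools. All knockout pools were above both control pools, which were close to each other. The mean was 9.47 ± 0.753 CPM in control (SD, n = 2) against 27.9 ± 3.45 CPM in the knockout (SD, n = 3), for a log2-fold change of 1.56, an SE of 0.34, and an edgeR adjusted p = 0.0326. These levels rest on 32 and 30 counts in control and on 246, 146, and 147 counts in knockout pools. With every library thinned to the smallest total, the log2-fold change was 1.58 and the adjusted p-value 0.0516, and with scaling by library size alone 1.41 and 0.0521. Without control pool 2 the adjusted p-value was 0.0592, and without the sgMTSS1_1, sgMTSS1_2, or sgMTSS1_3 pool 0.102, 0.0733, and 0.0886. The gene's last 500 transcript bases overlap *SLC9A3R1-AS1* on the opposite strand, which stood at no more than 1.56 CPM in any library.

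*RAB26*, a close relative of *RAB37* that also acts on secretory granules, was at 6.25 and 3.58 CPM in control and at 4.28, 2.17, and 4.00 CPM in knockout pools, which overlapped. The log2 ratio of *RAB37* to *RAB26* within a library, which no scaling can change, was 0.66 and 1.29 in control and 2.88, 3.55, and 2.65 in knockout pools. Among the RAB3 proteins, which act late in exocytosis, *RAB3D* was at 4.69 and 5.07 CPM in control and at 2.08, 2.53, and 1.74 CPM in knockout pools. All its knockout pools were lower, but counts were between 10 and 17, and the log2-fold change of −1.20 (SE 0.49) did not pass (edgeR adjusted p = 0.177). Its 3′ end overlaps an unnamed gene on the opposite strand. *RAB3C* had a log2-fold change of −0.59 and *RAB3B* of 0.24. The ratio of *RAB3D* to *RAB3B* was lower in every knockout than in both control pools, while that of *RAB3C* to *RAB3B* overlapped. Ratios of further relatives were mixed. Those of *RAB8A* to *RAB8B*, *RAB11B* to *RAB11A*, and *RAB6C* to *RAB6A* overlapped. Those of *RAB2B* to *RAB2A* and *RAB6B* to *RAB6A* were higher, and that of *RAB32* to *RAB29* lower, in every knockout pool. *RAB44* (0.56) and *RAB27A* (−0.02), which are known from the granules of blood cells, had overlapping pools. The median over the 7 tested genes of this group was −0.02, with 3 higher and 4 lower.

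RABs of early endosomes and phagosomes had the highest share of genes on the upper side, with 5 of 7 higher, a median of 0.12, and 0 called. With library size alone, 3 of 7 were higher and the median was −0.017, beside −0.17 for all genes. *RAB31* (ENSG00000168461) was at 172 and 176 CPM in control and at 256, 306, and 383 CPM in knockout pools. The groups did not overlap, and the sgMTSS1_3 pool was the highest. The log2-fold change of 0.86 (SE 0.31) had an unadjusted p-value of 0.0215, but the edgeR adjusted p = 0.140 did not pass. In the order of mean levels, *RAB31* went from the fifth place in control to the first in knockout pools. The control pools of *RAB5C* lay on both sides of those of *RAB31*, so the place in control is not fixed. *RAB22A*, a close relative of *RAB31*, was at 33.8 and 18.2 CPM in control and at 22.6, 26.9, and 27.5 CPM in knockout pools, which overlapped. The log2 ratio of *RAB31* to *RAB22A* was 2.34 and 3.26 in control and 3.50, 3.50, and 3.79 in knockout pools.

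The 3 RAB5 genes, whose products drive fusion of early endosomes, were not tested against each other. Within a library, the ratios of *RAB5B* and of *RAB5C* to *RAB5A* overlapped between control and knockout pools. *RAB5B* was at 24.7 and 20.3 CPM in control and at 31.6, 30.3, and 46.1 CPM in knockout pools, all above the control pools (log2-fold change 0.68, SE 0.33, edgeR adjusted p = 0.255). *RAB5A* was at 45.0 and 55.1 CPM in control and at 47.7, 58.9, and 71.9 CPM in knockout pools, which overlapped. *RAB5C* differed 5.46-fold between the control pools, and its knockout pools, at 135, 224, and 199 CPM, lay between them. Its log2-fold change was −0.46, turned to 1.26 without control pool 2, and was −1.21 without control pool 1, so the direction rests on the control pool chosen. Of the 45 tested RAB genes, 7 differed more than 2-fold between the control pools, where 30.7% of all tested genes did. *RAB5C* has 2 pseudogenes named after it, so its count is uncertain.

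**Figure D3:**
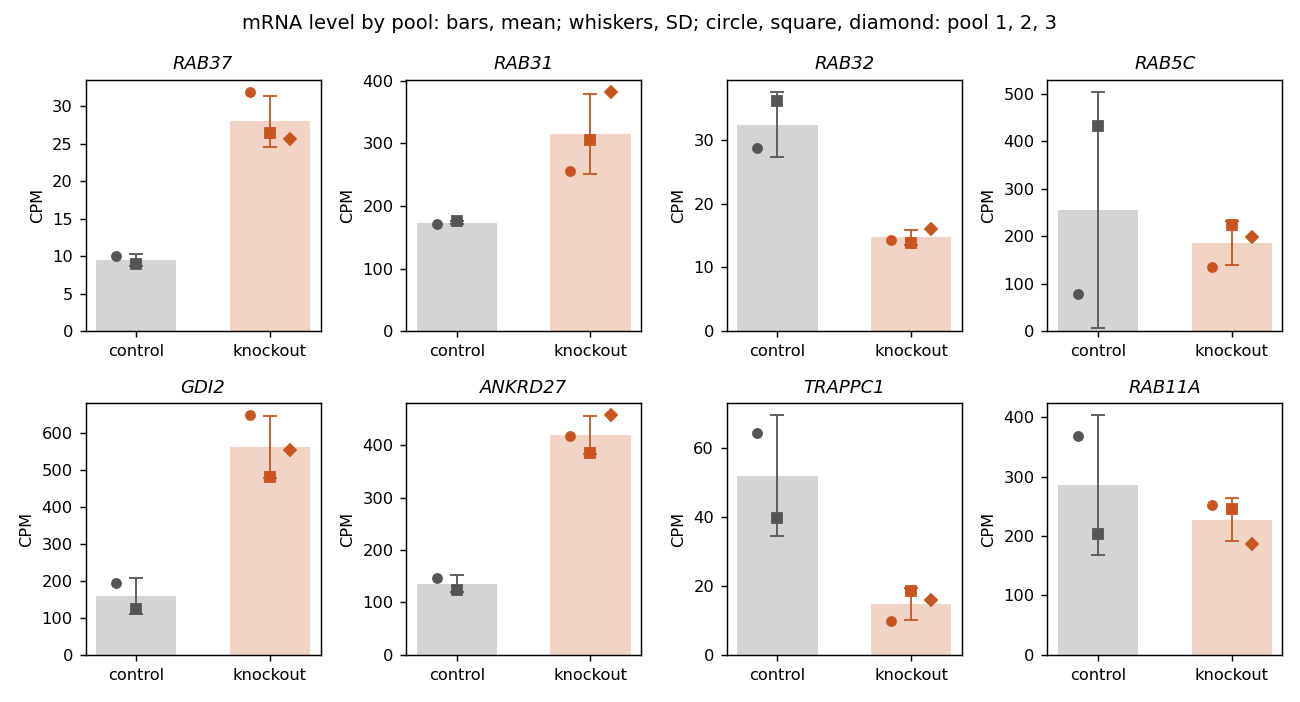
mRNA level in CPM (vertical, starting at 0) of 8 genes in control (grey) and knockout pools (orange), with bars for the mean, whiskers for the SD, and a symbol for each pool. In *RAB37*, *RAB31*, *GDI2*, and *ANKRD27* all 3 knockout pools are above, and in *RAB32* and *TRAPPC1* below, the 2 control pools, while *RAB5C* and *RAB11A* overlap.

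In the group of late endosomes, lysosomes, and autophagy, *RAB32* (ENSG00000118508, chromosome 6, 146543833 to 146554953) lay just outside the threshold. *RAB32*, which acts on lysosome-related organelles and mitochondria, was at 28.8 and 36.1 CPM in control and at 14.3, 13.9, and 16.01 CPM in knockout pools. The knockout pools were close to each other and all below the control pools. The means were 32.4 ± 5.16 CPM (SD, n = 2) and 14.7 ± 1.12 CPM (SD, n = 3), with a log2-fold change of −1.14 (SE 0.30, edgeR adjusted p = 0.0618), which did not pass. It passed with offsets for GC content and length (log2-fold change −1.30, edgeR adjusted p = 0.0327). With these offsets and the replicate number as a block it also passed (log2-fold change −1.39, edgeR adjusted p = 0.0428). The log2-fold change was −1.28 without control pool 1 and −0.94 without control pool 2. With thinning and without a filter it was −0.99 and did not pass (edgeR adjusted p = 0.147 and 0.128, respectively). Without the sgMTSS1_1, sgMTSS1_2, or sgMTSS1_3 pool, the edgeR adjusted p-value was 0.151, 0.186, and 0.194. *RAB29*, of the same subfamily, had a log2-fold change of −0.57 and overlapping pools, and *RAB38* was not tested. *RAB7A* was at 114 and 153 CPM in control and at 106, 129, and 130 CPM in knockout pools, which overlapped (log2-fold change −0.14, SE 0.29). *RAB39B*, best known from neurons, was near the floor with 4 counts in each control pool and 25, 8, and 15 in knockout pools, and its log2-fold change of 0.995 did not pass (edgeR adjusted p = 0.400). The group's median was −0.14, with 3 of 7 higher and 0 called.

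RABs of recycling and polarised transport were lower for 8 of 10 tested genes, with a median of −0.29 and 0 called. With the 3 other scalings, 8 of 10 were again lower, at medians from −0.40 to −0.31, beside −0.17 to −0.046 for all genes. *RAB8A*, which acts in exocytosis and cilium growth and was singled out after its values were seen, was at 111 and 141 CPM in control and at 79.0, 83.2, and 81.9 CPM in knockout pools. The groups did not overlap, but the log2-fold change of −0.63 (SE 0.28) did not pass (edgeR adjusted p = 0.207). Its 3′ end overlaps *HSH2D* on the same strand (0.596 to 9.47 CPM), so its count is uncertain. *RAB10* was at 265 and 266 CPM in control and at 209, 215, and 213 CPM in knockout pools. Its pools were tight within each group and did not overlap, with a log2-fold change of −0.32 (SE 0.28, edgeR adjusted p = 0.524). *RAB11A* was at 252, 246, and 186 CPM in knockout pools and overlapped the control pools, and its count is uncertain for 2 pseudogenes named after it. *RAB11B* was at 69.4 and 51.9 CPM in control and at 19.1, 42.1, and 49.9 CPM in knockout pools, lowest in the sgMTSS1_1 pool, with a log2-fold change of −0.71 (SE 0.41, edgeR adjusted p = 0.328).

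RABs of the ER and Golgi had a median of 0.0094 over 9 tested genes, with 5 higher, 4 lower, and 0 called. With the 3 other scalings the median was −0.10 to −0.011, beside −0.17 to −0.046 for all genes. It thus stayed above the median of all genes in each scaling. *RAB2A* was at 235, 213, and 194 CPM in knockout pools and overlapped the control pools, and its relative *RAB2B* had a log2-fold change of 0.40 with overlapping pools. *RAB6B* was at 86.9 and 94.2 CPM in control and at 112, 105, and 96.2 CPM in knockout pools, and its log2-fold change was 0.21 (SE 0.28). *RAB6A*, the RAB of Golgi-to-ER transport, was at 25.01 and 21.2 CPM in control and at 21.9, 21.1, and 18.8 CPM in knockout pools. *RAB6C*, a retrotransposed copy of *RAB6A*, was at 15.9 and 49.2 CPM in control and at 14.3, 23.8, and 23.3 CPM in knockout pools, which overlapped. Since reads that map to more than 1 place were removed, the counts of *RAB6A* and *RAB6C* are uncertain. *RAB33B*, which binds the autophagy protein ATG16L1, was at 4.69 and 4.77 CPM in control and at 3.11, 2.35, and 3.65 CPM in knockout pools (log2-fold change −0.63, edgeR adjusted p = 0.465).

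In the group of cilium and other RABs, *RAB23*, a negative regulator of Hedgehog signaling, had the lowest log2-fold change of all tested RAB genes. *RAB23* was at 6.88 and 3.87 CPM in control and at 1.82, 2.35, and 1.57 CPM in knockout pools, all below the control pools. The log2-fold change of −1.48 (SE 0.52) rests on 9 to 22 counts per library and did not pass (edgeR adjusted p = 0.125). Its 3′ end overlaps *BAG2* on the opposite strand, which was at 67.2 and 58.1 CPM in control and at 48.9, 42.4, and 34.4 CPM in knockout pools, also all below. Their reads cannot be told apart without a stated strand setting. *RAB28* and *RAB40B* had log2-fold changes of 0.78 and 0.81 with 3 and 4 counts in control pool 2, and 18 and 11 in control pool 1. Without control pool 1 the log2-fold changes were 2.63 and 1.75, and without control pool 2 they were 0.02 and 0.26. *RAB28* has 5 pseudogenes named after it, so its count is uncertain. *RAB40C*, which like *RAB40B* carries a SOCS box, had a log2-fold change of −0.08, and its 3′ end overlaps *WFIKKN1* on the same strand.

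The 11 genes removed by the filter had at most 29 counts in any library. *RAB33A* had 29 counts in the sgMTSS1_1 pool, where *RAB38* had 28, and at most 6 counts each in the 4 other libraries. *RAB27B* had 1 count in each control pool and 10, 0, and 7 counts in the knockout pools. *RAB9B*, *RAB25*, *RAB39A*, and *RAB41* had at most 3 counts in every library, and *RAB6D* had 4 counts in the sgMTSS1_3 pool and 0 in all others. *RAB3A*, *RAB4B*, and *RAB40A* had at most 5. Whether these genes differ was not detectable at this depth.

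The lists of RAB regulators and effectors held 130 genes of the table, 115 of which were tested. Of these, 38 were higher and 77 lower, with a median of −0.33, and 2 were called as higher and 1 as lower, beside 4.17% and 1.01% of all genes. Every knockout pool lay above both control pools for 14 and below for 36, beside 22.2% and 19.2% of all genes. The RAB cycle itself is served by 8 genes of prenylation, escort, and GDI, of which 1 was called. *GDI2* (ENSG00000057608, chromosome 10, 5765223 to 5842132) encodes a GDI for many RABs and was at 194 and 125 CPM in control and at 646, 479, and 554 CPM in knockout pools. All knockout pools were above both control pools, at means of 560 ± 83.7 CPM (SD, n = 3) and 160 ± 49.2 CPM (SD, n = 2). The log2-fold change was 1.81 (SE 0.35, edgeR adjusted p = 0.0234). *GDI2* has 2 pseudogenes named after it. *RABGGTB*, a subunit of the enzyme that prenylates RABs, had a log2-fold change of −0.38, and *CHML*, an escort protein of that reaction, of −0.34.

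Among 43 tested GEF genes, 14 were higher and 29 lower, with a median of −0.30. *ANKRD27* (ENSG00000105186, chromosome 19, 32597006 to 32676597) encodes VARP, a GEF for RAB21 that also binds RAB32 and RAB38. It was at 147 and 125 CPM in control and at 418, 384, and 457 CPM in knockout pools, with all knockout pools higher (log2-fold change 1.63, SE 0.31, edgeR adjusted p = 0.0219). *RAB21* itself was at 22.8 and 23.2 CPM in control and at 27.2, 24.0, and 24.0 CPM in knockout pools, and its log2-fold change was 0.12. *TRAPPC1* (ENSG00000170043, chromosome 17, 7930345 to 7932123), a subunit of the TRAPP complexes that load RAB1 and RAB11, was at 64.4 and 39.6 CPM in control and at 9.73, 18.6, and 16.01 CPM in knockout pools. All knockout pools were lower (log2-fold change −1.82, SE 0.37, edgeR adjusted p = 0.0261). Its 3′ end overlaps an unnamed gene on the same strand, so its count is uncertain. Other TRAPP subunits were split in direction, and none was called. All knockout pools were above the control pools for *TRAPPC3* and *TRAPPC4* (log2-fold changes 0.81 and 1.02). All were below for *TRAPPC2* and *TRAPPC10* (−0.34 and −0.70), and the remaining tested subunits overlapped. *RAB1A*, which TRAPP acts on, had a log2-fold change of 0.12 with overlapping pools, and its count is uncertain for 2 pseudogenes and *CEP68* on the opposite strand. None of *GDI2*, *ANKRD27*, and *TRAPPC1* passed the adjusted p-value when any 1 knockout pool was left out, nor did *TRAPPC1* without control pool 1 (log2-fold change −1.42, edgeR adjusted p = 0.0559).

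Of 35 tested GAP genes, 12 were higher and 23 lower (median −0.27), and of 29 effector genes, 9 were higher and 20 lower (median −0.48), with 0 called in either list. Every knockout pool lay below both control pools for 12 of the GAP and for 12 of the effector genes, beside 19.2% of all tested genes, and above for 3 and 5, beside 22.2%. The effectors *RABEP1*, which binds RAB5, and *RILP*, which binds RAB7, were singled out after their values were seen. *RABEP1* was at 175 and 167 CPM in control and at 104, 114, and 100 CPM in knockout pools, and *RILP* at 73.8 and 51.3 CPM in control and at 28.3, 34.8, and 40.0 CPM in knockout pools. Both had all knockout pools below the control pools and did not pass (log2-fold changes −0.69 and −0.86, edgeR adjusted p = 0.168 and 0.135). The effectors with the lowest p-values were *RILPL2* and *SYTL3*, which went in opposite directions and did not pass either. *RILPL2* had all knockout pools above the control pools (log2-fold change 1.39, edgeR adjusted p = 0.0624), and *SYTL3* had all below (−1.24, edgeR adjusted p = 0.0971).

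**Figure D4:**
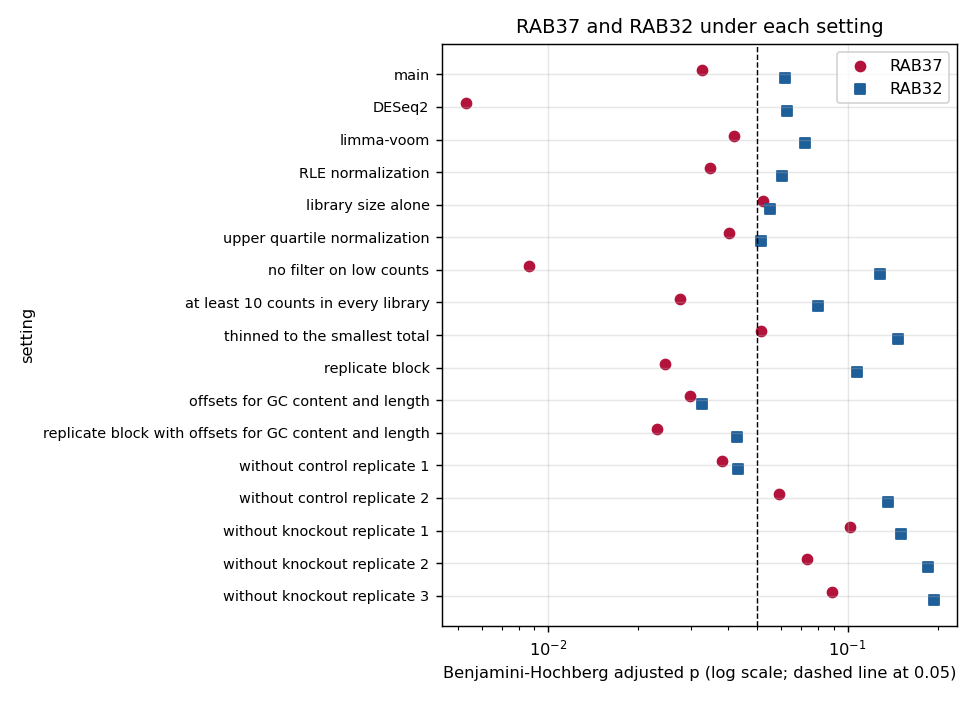
Adjusted p-value on a log scale (horizontal) of *RAB37* (red circles) and *RAB32* (blue squares) in each setting (vertical), with a dashed line at 0.05. *RAB37* lies left of the line in 11 of 17 settings and *RAB32* in 3, and *RAB37* ranges from 0.00531 with DESeq2 to 0.102 without the sgMTSS1_1 pool.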

How the data were processed

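Each of the 5 QuantSeq 3′ mRNA libraries was made from a pool of 4 TF-1 clones. The authors trimmed adapters, aligned reads to GRCh38 with HISAT2 2.1.0, removed non-uniquely mapped reads with SAMtools 1.10, and deposited raw read counts per Ensembl gene. Counting program, annotation release, strand setting, and duplicate handling are not given in the sources used here. Pools sgCtrl 3 and sgMTSS1_4 were excluded in the paper by an outlier test on their distance from the group's center in principal components. They were not analysed here. Libraries were grouped by their titles.

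Genes were named from GENCODE release 44 (27211 of 27328 matched), and 1 pseudogene that fits the name pattern was left out. Counts were filtered with filterByExpr at a minimum count of 10, scaled with TMM, and tested with edgeR 4.0.16 (glmQLFTest, condition only, R 4.3.3) over 14391 genes. Standard errors derive from fold change and F statistic. Within-library ratios add 0.5 to each count. Overlaps were sought in the last 500 transcript bases. The fit was tested on simulated data.

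Alternatives were DESeq2 1.42.0, limma-voom (limma 3.58.1), RLE, upper quartile, and library size scaling, other filters, thinning, a replicate block, GC and length offsets (mgcv 1.9.3), an adjusted p-value under 0.1, and each replicate left out. Control totals had a lower depth than knockout totals, which limits genes under 20 counts.

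Named genes were *MTSS1*, called RABs, those with the 6 highest and 6 lowest log2-fold changes, the 5 highest in control, their paralogs of the same number, called regulators, and the 3 highest genes of prenylation, escort, and GDI. Others given values (*RAB1A*, *RAB7A*, *RAB8A*, *RAB21*, *RAB22A*, *RAB26*, *RAB27A*, *RAB29*, *RAB44*, *RABEP1*, *RILP*, *RILPL2*, *SYTL3*, *TRAPPC2*, *TRAPPC3*, *TRAPPC4*, and *TRAPPC10*) were chosen after their values were seen. Members and lists were chosen with earlier results of these data known. No columns were left unused.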

Additional observations from a re-analysis of the deposited data

How the results depend on the processing

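Of 29 named genes with a test, 21 kept their direction in all alternatives, and 424 of 457 values kept direction and call, 16 lost and 3 gained the call, and 14 reversed. Reversed log2-fold changes came mostly from leaving out 1 pool. With 1 replicate left out, values ranged from −1.04 to 0.16 for *MTSS1*, −1.26 to 0.38 for *RAB6C*, −0.30 to 0.16 for *RAB2A*, −1.21 to 1.26 for *RAB5C*, −0.67 to 0.18 for *RAB11A*, −0.021 to 0.61 for *RAB3B*, −0.36 to 0.17 for *RAB40C*, and −0.65 to 0.10 for *CHML*. Reversed values without control pool 1 were 0.16 (*MTSS1*), 0.16 (*RAB2A*), 0.18 (*RAB11A*), 0.06 (*RAB40C*), and 0.10 (*CHML*), without control pool 2 0.38 (*RAB6C*), 1.26 (*RAB5C*), and −0.021 (*RAB3B*), without the sgMTSS1_1 pool 0.17 (*RAB40C*), and without the sgMTSS1_3 pool 0.0031 (*RAB2A*). Others came without a filter (*RAB2A* 0.039, *RAB40C* 0.069), with thinning (*RAB40C* 0.23), and with GC and length offsets (*RAB40C* 0.022). The cause was not tested.

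The 1 RAB call, and likewise the count of RAB genes with an adjusted p-value under 0.05, was 0 with library size alone or thinning and 2 with offsets or an adjusted p-value under 0.1. With 1 replicate left out it ranged from 0 to 2, with 2 only without control pool 1. The 3 regulator calls became 6 with DESeq2, 6 without a filter, 5 with offsets, and 8 at an adjusted p-value under 0.1, and ranged from 0 to 8 with 1 replicate left out. Over all genes, 745 calls became 1272 with DESeq2, 1374 without a filter, 480 with thinning, and 1531 at an adjusted p-value under 0.1, and ranged from 111 (without the sgMTSS1_1 pool) to 1349 (without control pool 1) with 1 replicate left out. The median RAB log2-fold change was −0.20 with library size alone, −0.16 with upper quartile scaling, 0.10 without a filter, and 8.4e-05 with at least 10 counts in every library, and ranged from −0.076 to 0.12 with 1 replicate left out. The median of all genes, −0.03, was −0.17 with library size alone. The 14 RAB genes whose pools did not overlap became 17 to 33 with 1 replicate left out, where fewer pools are compared. The share of all tested genes was not determined with a replicate left out, so this rise cannot be read as a trait of the RAB genes. Where 1 control pool is left, it is assumed to vary like the knockout pools.

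Pools share replicate numbers in their names, but same-numbered pools are no pairs by design, and the numbers 1 and 2 correlated at r = 0.170 over 14391 genes, with 2 pairs only. With the replicate number as a block, calls were 1094 over all genes, 1 for RAB genes, and 5 for regulators. With block and offsets, calls were 2 for RAB genes and 6 for regulators.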
